A study of Arabidopsis thaliana with 9 samples.

Results

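Among 9 arrays of Arabidopsis thaliana whole-root RNA, the 2 arrays titled replicate 3 of Col-0 and of scl3 stood apart from the 4 arrays titled replicate 1 or 2 of the same genotypes, and they are described here against those 4. The split was chosen by measured values: earlier results on these same signals had shown that the 2 arrays differed from the rest. Every difference between them and the other arrays is therefore given as a description, with no test. The groups were Col-0, the wild type, and scl3, a mutant in the Col-0 background carrying the allele scl3-1 of the GRAS-family gene SCL3. Both had 3 arrays, each from RNA of whole roots taken 7 days after germination, from plants on MS medium at 22 °C with 16 h of light and 8 h of dark. The 3 arrays of the SCL3 OE line, which overexpresses SCL3, were left out. The replicate 3 arrays carried nuclear and plastid transcripts of chloroplasts at levels mostly far above those of the other 4. Transcripts of the stomatal lineage were higher too, though some stayed dim, while transcripts of root hairs, endodermis and suberised tissue were lower. Not every shoot list rose. Whether these arrays, labelled whole root, held RNA of shoot tissue was not tested.

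A root of a light-grown seedling holds plastids but few green chloroplasts, and transcripts for light harvesting, carbon fixation and chlorophyll synthesis are known mainly from leaves, cotyledons and the hypocotyl. Stomata form in the shoot epidermis and not in roots, so the regulators of their lineage mark shoot tissue. Root hairs, the Casparian strip and the suberin of the endodermis, the root stem cell niche and lateral root founder cells are root structures with transcripts of their own. In RNA from bulk tissue, fewer cells of a type and less RNA per cell cannot be told apart.

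Array-wide measures also separated the same 2 arrays. Each array's signals were scaled by the submitters' software, and the median plant signal was 182 to 191 on the 4 arrays and 158 to 159 on the replicate 3 arrays. The 18 probe sets of bacterial and phage RNA added at hybridization had mean log2 signals of 11.998 to 12.42 on the 4 arrays, against 9.69 in Col-0 replicate 3 and 9.46 in scl3 replicate 3. The 3′ to 5′ signal ratio of GAPDH, a reading of how complete the labelled RNA was, ran from 1.73 to 1.95 on the 4 arrays and was 1.16 and 1.25 on the replicate 3 arrays. That of actin was 12.8 to 17.8 against 11.5 and 8.24, and that of ubiquitin 2.84 to 3.37 against 2.05 and 2.76. The part of these measures in the differences below was not tested. Across plant probe sets, the 4 arrays correlated with each other at Pearson r 0.959 to 0.962, the 2 replicate 3 arrays with each other at 0.943, and the 2 kinds of array at 0.818 to 0.825. These r values are across probe sets of arrays that share one probe design and are a description.

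A probe set was counted as higher or lower when its fitted log2 difference, with genotype as a term, was at least 1 in size and both replicate 3 arrays lay outside the range of the other 4. Of 22746 plant probe sets, 3112 (13.7%) were counted higher and 4866 (21.4%) lower. The median difference over all of them was -0.33, so lower values below are to be read against that shift. Centred on array medians the split was 3710 higher and 3581 lower, and scaled to the hybridization controls it was 18643 and 134. The 2 directions differed in size. At 64-fold or more, 215 probe sets were higher and 8 lower, and at 16-fold or more 591 were higher and 100 lower. Of the probe sets counted higher, 1779 had a mean signal under 100 in replicates 1 and 2, close to the dim end where values scatter, and 1333 did not. Split into 5 equal bins by mean log2 signal over the 6 arrays, the median difference was -0.11 in the dimmest bin, -0.45 in the middle one and -0.36 in the brightest. Each value is log2(signal + 1), a scale on which the size of a dim probe set's difference depends on the constant added, and no detection calls were used.

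The difference ran largely the same way in both genotypes. Calculated within Col-0 and within scl3, each with its own arrays, it correlated at r = 0.76 across probe sets. Of the 3112 probe sets counted higher, 2656 were at least 2-fold higher in each genotype, and of the 4866 counted lower, 3744 were at least 2-fold lower in each. Opposite differences of 2-fold or more occurred in 637 probe sets, of which 635 had a mean signal under 100.

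**Figure D1:**
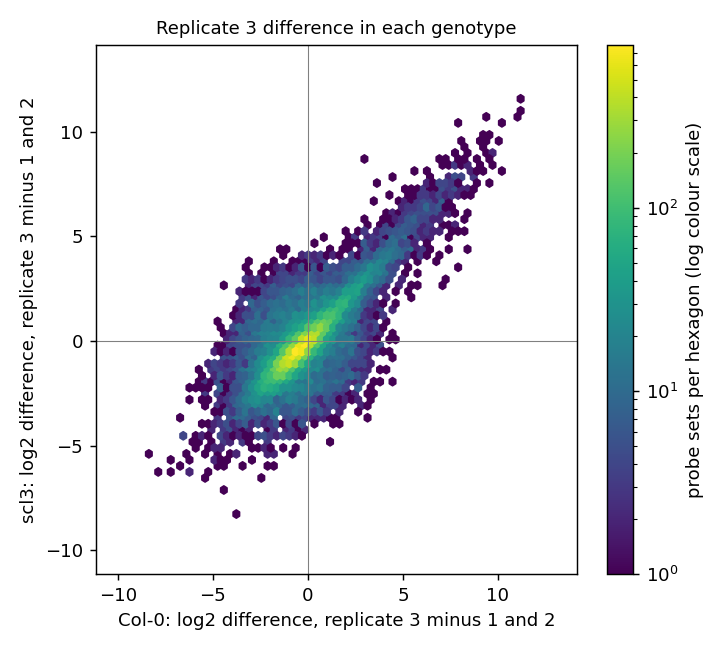
Log2 difference of replicate 3 from the mean of replicates 1 and 2, within Col-0 on the x axis and within scl3 on the y axis, for the 22746 plant probe sets, with colour for the number of probe sets per hexagon. The points lie along the diagonal (r = 0.76), and the arm above 5 in both genotypes is longer than the arm below -5.

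Gene names were available for 13513 probe sets, which gave 13356 genes with 1 probe set each, the brightest. Of these genes 1628 (12.2%) were counted higher and 2728 (20.4%) lower, and their median difference was -0.33. The 49 gene lists held 251 genes with a probe set named for that gene alone, called measured here. The lists named 755 loci, most of them without such a probe set. The photosystem I list, for one, had 12 loci and 2 measured genes. Statements on all measured genes of a list cover only these. The 17 lists of shoot functions had 121, of which 101 were counted higher and 7 lower, with a median of 2.75. The plastid genome list alone gave 69 of the 121 and 61 of those counted higher. Some shoot lists did not rise: the median was -0.26 over 3 aliphatic glucosinolate and myrosinase genes, and the 1 clock gene differed by -0.39. The 19 lists of root functions had 74, of which 6 were higher and 39 lower, with a median of -1.09. Since the same contrast chose the arrays, nothing is read from these shares beyond the description. In values below, Col-0 stands before scl3.

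The measured nuclear genes of the photosynthetic membranes were all counted higher. Both measured genes of photosystem I, all 3 of photosystem II, all 3 of the light-harvesting antenna and all 3 of electron transport and ATP synthase were in that class. PSAE-1 (AT4G28750), a stromal-side subunit of photosystem I, had log2 signals of 5.84 and 6.61 in Col-0 and 5.92 and 6.88 in scl3 in replicates 1 and 2, and 14.09 and 13.90 in replicate 3, which is a difference of 7.68 beside an SD of 0.51 over the other 4 arrays. LHCB4.1 (AT5G01530), a minor antenna protein of photosystem II, had 7.60 and 8.22 in Col-0 and 7.95 and 8.21 in scl3 in replicates 1 and 2, and 14.28 and 14.22 in replicate 3, a difference of 6.25. Its relative LHCB4.2 (AT3G08940) differed by 7.55. For PSAE-1 and LHCB4.1 the 2 replicate 3 arrays lay close together and far outside the range of the other 4. They lay further apart for LHCB4.3 (AT2G40100), which differed by 4.13, with 9.48 in Col-0 and 11.22 in scl3 replicate 3. The photosystem II proteins PSBY (AT1G67740), PSB27 (AT1G03600) and PSBW (AT2G30570) differed by 7.11, 6.59 and 6.37. The smallest difference in these lists was 1.81, in PGRL1B (AT4G11960), a protein of cyclic electron flow, while ATPC1 (AT4G04640), the gamma subunit of the chloroplast ATP synthase, differed by 4.77.

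Carbon fixation followed the same direction. All 4 measured Calvin cycle genes were counted higher. PRK (AT1G32060), phosphoribulokinase, gave 5.34 and 5.80 in Col-0 and 4.17 and 4.71 in scl3 in replicates 1 and 2, and 12.80 and 13.19 in replicate 3, a difference of 7.99 that put it among the 15 named genes with the highest difference. SBPASE (AT3G55800), sedoheptulose-bisphosphatase, differed by 6.93, and RCA (AT2G39730), the activase of Rubisco, by 6.42. AT1G56190, a phosphoglycerate kinase, was already bright in replicates 1 and 2, at 9.99 to 10.08, and differed by only 1.25. Of 5 photorespiration genes 4 were higher and 1 lower. HPR (AT1G68010), the peroxisomal hydroxypyruvate reductase, differed by 7.48, and AT1G32470, an H protein of glycine decarboxylase, by 6.73. AT2G35120, another H protein of that complex, went the other way with 12.82 and 12.82 in Col-0 and 12.81 and 12.74 in scl3 in replicates 1 and 2, and 11.56 and 11.73 in replicate 3, a difference of -1.15. The paralogues thus differed in direction on the same arrays.

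All 8 measured genes of chlorophyll and tetrapyrrole synthesis were counted higher, and the difference was larger in the chlorophyll branch than in the shared early steps. PORB (AT4G27440), which reduces protochlorophyllide in the light, gave 5.28 and 5.15 in Col-0 and 4.73 and 5.71 in scl3 in replicates 1 and 2, and 12.71 and 12.14 in replicate 3, a difference of 7.21 beside an SD of 0.40 over the other 4 arrays. CHLI2 (AT5G45930), a subunit of magnesium chelatase, differed by 6.02, AT1G74470, the geranylgeranyl reductase that makes the phytol tail, by 4.89, and the methyltransferase CHLM (AT4G25080) by 4.41. Among earlier enzymes, which also serve haem synthesis, HEME2 (AT2G40490) and HEME1 (AT3G14930) differed by 3.05 and 2.75, and HEMB1 (AT1G69740) and GSA1 (AT5G63570) by 1.46 and 1.35. The groups did not overlap for any of the 8, as the count requires.

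**Figure D2:**
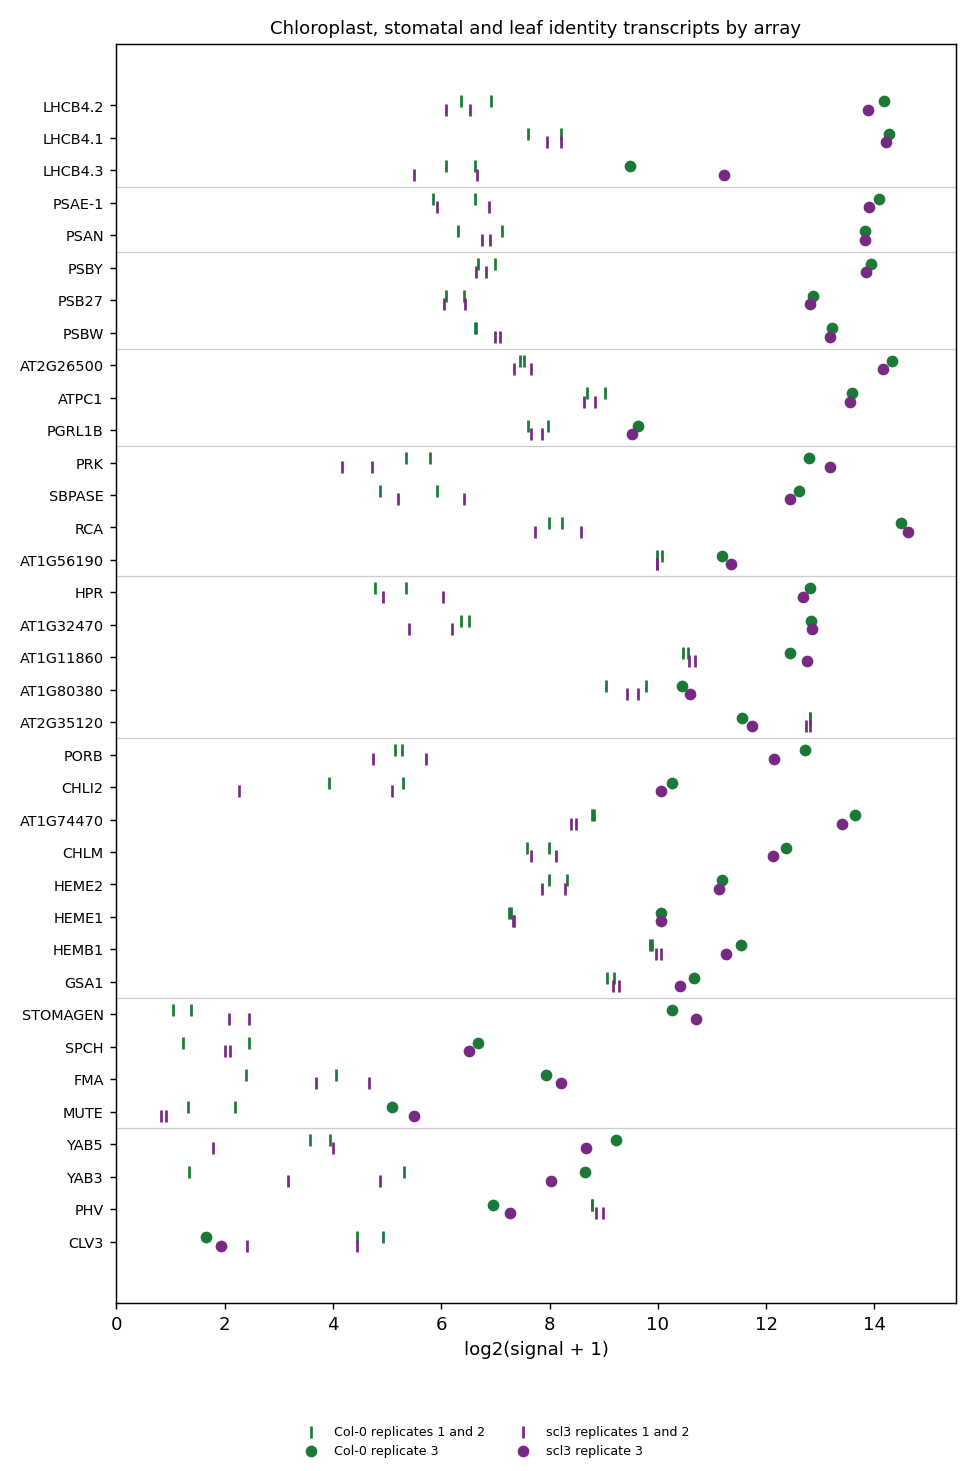
Log2(signal + 1) on each of the 6 arrays, on the x axis, for the genes of 9 shoot lists, with bars for replicates 1 and 2 and dots for replicate 3 (green, Col-0; purple, scl3). The dots of the photosystem genes lie between 12.81 and 14.09, while the highest bar of the same genes is at 7.11.

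The plastid chromosome itself was represented by 69 genes, of which 61 were counted higher and 2 lower, with a median difference of 2.41. Plastid transcripts mostly lack the stable poly(A) tail from which the labelling starts, so their signals are a poorer reading of level than those of nuclear genes. All 5 photosystem I genes were higher, with a median of 3.73, as were 14 of 15 photosystem II genes, with a median of 2.89. For psbA, which encodes the D1 protein, the signals were 6.18 and 6.24 in Col-0 and 6.12 and 6.08 in scl3 in replicates 1 and 2, and 11.19 and 11.09 in replicate 3, a difference of 4.98 beside an SD of 0.07 over the other 4 arrays. All 6 ATP synthase genes were higher, with a median of 2.51, and 9 of 10 NDH genes, with a median of 3.43. In the NDH complex, which returns electrons to the plastoquinone pool, ndhJ had the largest difference of the plastid genes, 7.25, but with an SD of 1.57 over the 4 other arrays. Of 15 ribosomal protein genes 13 were higher, with a median of 2.05, and the 4 RNA polymerase genes had a median of 1.62. The 6 cytochrome b6f genes had the lowest median of these roles, 1.28, with 3 higher and 1 lower. The 2 plastid genes counted lower were dim. These were rpoB, an RNA polymerase subunit, at 4.54 and 5.10 in Col-0 and 5.70 and 4.58 in scl3 in replicates 1 and 2, and 2.34 and 2.11 in replicate 3, and petG, a small cytochrome b6f subunit, which differed by -1.80. Mitochondrial genes had a lower median, 0.76 over 16 genes, with 5 counted higher and none lower. Among all genes 12.2% were counted higher. The largest mitochondrial difference was 1.69, in nad1, a subunit of respiratory complex I. With a pseudocount of 32 the median was 0.31 for the mitochondrial genes and 2.13 for the plastid genes.

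Nuclear genes named for the chloroplast NDH complex were grouped after their values were seen. All 9 of them were counted higher, with a median of 4.54. The subunits NdhL (AT1G70760), NdhN (AT5G58260) and NdhS (AT4G23890) differed by 6.54, 6.22 and 4.54. CRR42 (AT5G20935) differed by 7.18, and CRR21 (AT5G55740), which is needed for editing of an ndh transcript, by 3.15.

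The 4 measured regulators of the stomatal lineage were dim in replicates 1 and 2. All were counted higher in replicate 3, though SPCH and MUTE stayed dim there too. Against such dim values the size of a log2 difference depends on the pseudocount: the median of the 4 was 4.51, and 2.29 with a pseudocount of 32. STOMAGEN (AT4G12970), a secreted peptide made in the leaf mesophyll that raises stomatal number, had 1.37 and 1.04 in Col-0 and 2.08 and 2.44 in scl3 in replicates 1 and 2, and 10.27 and 10.71 in replicate 3. Its difference was 8.76, and 5.41 with a pseudocount of 32. SPCH (AT5G53210), the bHLH factor that starts the lineage, had 1.24 and 2.46 in Col-0 and 2.01 and 2.09 in scl3 in replicates 1 and 2, and 6.68 and 6.51 in replicate 3. MUTE (AT3G06120), which ends the dividing stage, differed by 3.98, or 1.06 with the larger pseudocount, and FMA (AT3G24140), known as FAMA, which sets guard cell fate, by 4.37, or 2.72. These are genes of successive steps, and none overlapped between the 2 sets of arrays.

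Leaf identity genes did not move together. Of 4 measured, YAB5 (AT2G26580) and YAB3 (AT4G00180), YABBY factors of the lower side of leaf primordia, were higher by 5.62 and 4.67. PHV (AT1G30490), a class III HD-ZIP factor of the upper leaf side that is also active in root vascular tissue, gave 8.79 and 8.78 in Col-0 and 8.85 and 8.98 in scl3 in replicates 1 and 2, and 6.96 and 7.26 in replicate 3, a difference of -1.74. CLV3 (AT2G27250), a peptide of the shoot stem cells, was dim on all 6 arrays and lower, with a difference of -2.26, in contrast to the YABBY genes. Neither the trichome regulator TRY (AT5G53200) nor the wax synthase WSD1 (AT5G37300) was counted in either direction, and the 4 seed storage genes were not either.

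Of the 15 genes with the highest differences, PRK and STOMAGEN were on a list, and the others were not. From 715 genes that were counted higher and bright, with a mean log2 signal of at least 9 in replicate 3, the 15 with the highest difference ran from 7.99 to 11.28. AT1G23130 had 4.01 and 1.23 in Col-0 and 3.35 and 1.42 in scl3 in replicates 1 and 2, and 13.67 and 13.90 in replicate 3. ECS1 (AT1G31580) had 3.08 and 3.996 in Col-0 and 3.01 and 4.98 in scl3 in replicates 1 and 2, and 13.71 and 14.33 in replicate 3, a difference of 10.26, and AT3G05730 differed by 9.76. Over these 3 genes the replicate 3 arrays went no lower than 13.67 and the other arrays no higher than 5.17. AT5G55450, a lipid transfer protein family member, gave 1.48 and 1.90 in Col-0 and 1.32 and 1.45 in scl3 in replicates 1 and 2, and 10.84 and 11.18 in replicate 3, a difference of 9.47, and of 5.95 with a pseudocount of 32. The remaining genes were AT4G17245, AT2G42220, AT3G62550, AT1G67860, AT5G47610, AT3G22210, AT5G52780, AT3G47250 and AT1G33811, with differences of 8.25 to 9.49, besides STOMAGEN and PRK. Several had values under 2 in 1 or more of the 4 arrays, where a small change of signal moves the logarithm greatly. With a pseudocount of 32 the differences of the 15 ran from 4.85 to 8.56, so their sizes and order depend on that choice.

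Of 4 genes of starch and sugar metabolism, 3 were counted higher and none lower. SWEET11 (AT3G48740), which releases sucrose for phloem loading in leaves, had 7.59 and 7.68 in Col-0 and 7.22 and 7.32 in scl3 in replicates 1 and 2, and 12.998 and 12.99 in replicate 3, a difference of 5.54. ATSPS4F (AT4G10120), a sucrose phosphate synthase, differed by 2.91, and SBE2.2 (AT5G03650), a starch branching enzyme, by 1.16. DPE1 (AT5G64860), a plastid enzyme of starch breakdown, differed by 0.94 and fell just short of the count. In the SWEET family as grouped after the values were seen, 6 of 14 genes were higher and 2 lower. SWEET1 (AT1G21460) and SWEET10 (AT5G50790) were higher by 4.73 and 4.25, while SWEET13 (AT5G50800), at 8.03 and 7.68 in Col-0 and 7.97 and 7.78 in scl3 in replicates 1 and 2, and 5.75 and 5.95 in replicate 3, and SWEET14 (AT4G25010) were lower, with differences of -2.02 and -1.74.

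All 4 measured genes of the low-oxygen response were counted higher, with a median of 4.19. AT5G10040, a small protein of the core low-oxygen response, had 4.89 and 4.24 in Col-0 and 3.77 and 4.56 in scl3 in replicates 1 and 2, and 9.998 and 11.41 in replicate 3, a difference of 6.34. AT4G10270 had 6.26 and 6.12 in Col-0 and 6.53 and 6.22 in scl3 in replicates 1 and 2, and 11.85 and 12.18 in replicate 3, a difference of 5.73 beside an SD of 0.18 over the other 4 arrays. AT3G10040, the trihelix factor HRA1 that restrains the response, differed by 2.65, and AT4G17260, lactate dehydrogenase, by 1.38. The scl3 array was above the Col-0 array for all 4 genes in replicate 3, for 4 in replicate 2 and for 3 in replicate 1, with median differences of 0.37, 0.23 and 0.10.

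Other process lists were mixed. Among 8 gibberellin and GRAS genes, the receptors GID1A (AT3G05120) and GID1C (AT5G27320) were higher by 2.19 and 1.25. The F-box protein SLY2 (AT5G48170), which marks DELLA repressors for breakdown, differed by -1.16, and SEC (AT3G04240), an O-GlcNAc transferase, by -1.01. GH3.3 (AT2G23170), an enzyme that conjugates auxin, gave 6.17 and 6.26 in Col-0 and 6.01 and 6.41 in scl3 in replicates 1 and 2, and 8.58 and 9.91 in replicate 3, a difference of 3.03. Of 5 genes of abscisic acid and cold, LEA4-5 (AT5G06760), LTI30 (AT3G50970) and COR47 (AT1G20440), all dehydration proteins, were lower, with differences of -4.34, -2.14 and -1.14, whereas COR15B (AT2G42530), a chloroplast protein of the cold response, was higher by 3.04. Among 9 genes used as stable references in expression work, 1 was counted lower and none higher. GAPC2 (AT1G13440), cytosolic glyceraldehyde-phosphate dehydrogenase, had 14.27 and 14.35 in Col-0 and 14.29 and 14.25 in scl3 in replicates 1 and 2, and 14.24 and 14.22 in replicate 3, a difference of -0.06.

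**Figure D3:**
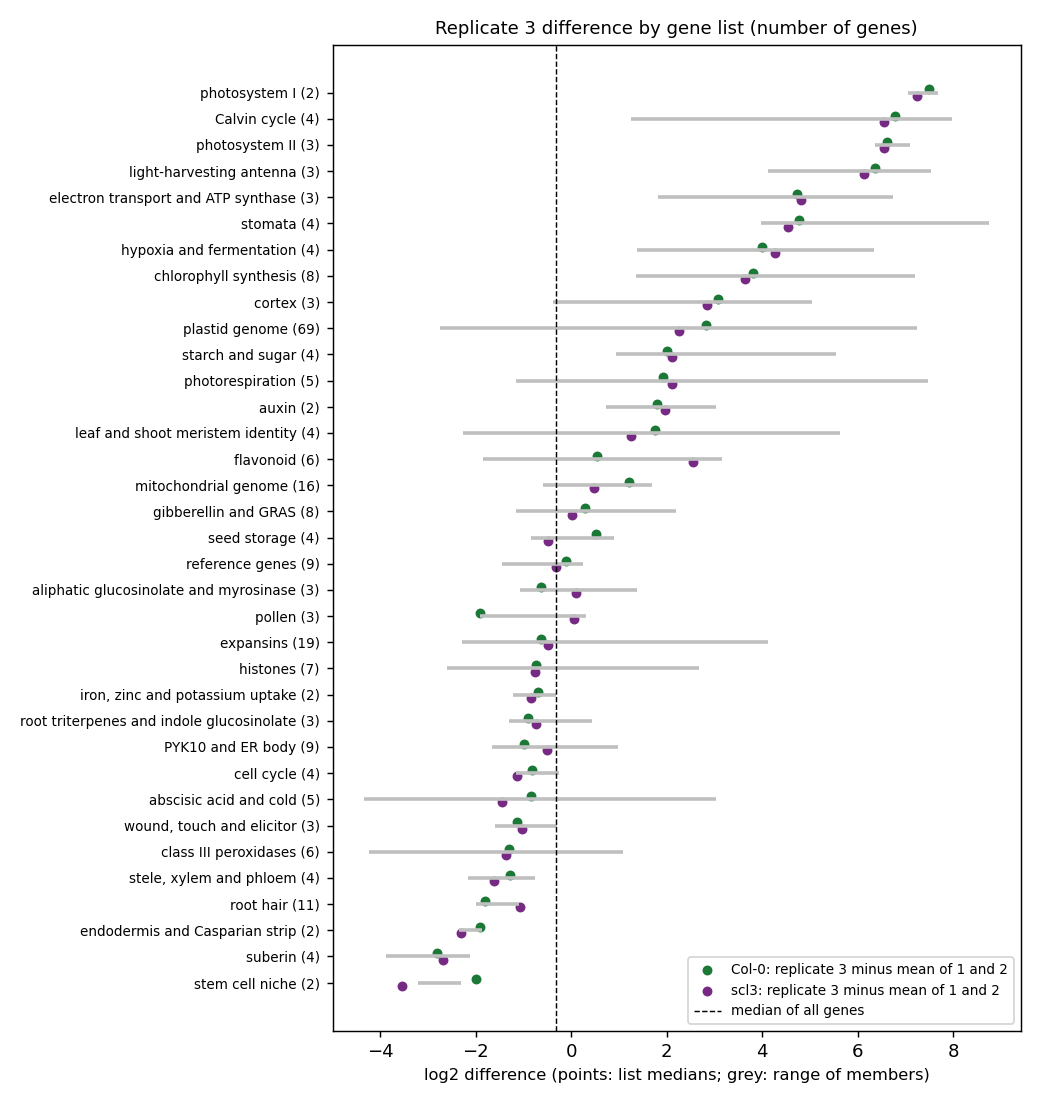
Median log2 difference of replicate 3 from replicates 1 and 2 for each list with 2 or more measured genes, in Col-0 (green) and scl3 (purple), with the range of members as a grey line (mean of both genotypes) and the median of all genes, -0.33, dashed. Photosystem I is highest and the stem cell niche, suberin and endodermis lists are lowest.

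On the root lists, the 39 genes counted lower included every measured gene of root hairs, endodermis, suberin and the stem cell niche, while 6 genes, among them 2 of 3 on the cortex list, were higher. Most loci of these lists were not measured. The root hair list had 48 loci and 11 measured genes, and the endodermis list 16 and 2. The suberin list had 18 and 4, and the stem cell niche list 10 and 2. The direction of the list medians holds for the array-scaled signals as deposited and after quantile normalization or median centring. The hybridization controls were dimmer on the 2 arrays, and scaling to them raises the median of all probe sets to 2.23. On that scale the medians of the root hair, endodermis and stele lists turned positive, at 1.1, 0.44 and 1.27. So did the other negative root list medians, such as cell cycle at 1.58 and PYK10 and ER body at 1.59. Only suberin, at -0.1, and the stem cell niche, at -0.21, stayed negative, both close to 0. What follows is relative to the rest of each array.

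Root hairs gave an even pattern: all 11 measured genes were counted lower, between -1.99 and -1.08. EXPA18 (AT1G62980), an expansin that loosens the wall at the growing hair, had 10.90 and 11.01 in Col-0 and 10.83 and 10.64 in scl3 in replicates 1 and 2, and 8.53 and 9.19 in replicate 3, a difference of -1.99 beside an SD of 0.16 over the other 4 arrays. EXPA7 (AT1G12560), its close relative, had 9.41 and 9.84 in Col-0 and 9.44 and 9.33 in scl3 in replicates 1 and 2, and 7.79 and 8.31 in replicate 3. The endoglucanase GH9C1 (AT1G48930) and the wall enzyme XTH26 (AT4G28850) differed by -1.49 and -1.57. The class III peroxidases AT1G34510, AT1G30870, AT3G49960 and AT4G26010 differed by -1.46, -1.21, -1.13 and -1.08. In all 11 genes the Col-0 array was the lower of the 2 replicate 3 arrays.

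The measured genes of the endodermis and its suberin were lower, and those of the cortex list were not. GSO1 (AT4G20140), the receptor kinase that checks that the Casparian strip is sealed, had 9.21 and 9.48 in Col-0 and 9.24 and 9.33 in scl3 in replicates 1 and 2, and 7.06 and 6.86 in replicate 3, a difference of -2.36. AT1G61590, a kinase of the same barrier pathway, differed by -1.87. All 4 measured suberin genes were lower, with a median of -2.66. AT5G37690, a GDSL-type esterase/lipase, had 11.14 and 11.30 in Col-0 and 10.95 and 11.15 in scl3 in replicates 1 and 2, and 7.20 and 7.30 in replicate 3, a difference of -3.88 beside an SD of 0.15 over the other 4 arrays. AT2G23540 and AT1G74460, of the same enzyme class, differed by -2.72 and -2.11, and FACT (AT5G63560), which esterifies caffeate to fatty alcohols of root wax, by -2.59. On the cortex list, AT1G09750 went the other way with 7.11 and 7.44 in Col-0 and 6.98 and 7.71 in scl3 in replicates 1 and 2, and 12.41 and 12.29 in replicate 3, a difference of 5.04. AT1G62500 was higher by 2.95, while the ground tissue factor JKD (AT5G03150) differed by -0.37 and was not counted.

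Genes of the stele, lateral root founder cells and meristem were mostly lower. LBD16 (AT2G42430), which starts lateral roots downstream of auxin, had 8.40 and 8.62 in Col-0 and 8.42 and 8.72 in scl3 in replicates 1 and 2, and 6.38 and 6.37 in replicate 3, a difference of -2.17, and LBD29 (AT3G58190) differed by -1.15. LHW (AT2G27230), a bHLH factor of vascular cell number, differed by -1.42. BBM (AT5G17430), an AP2 factor of the root stem cell niche, had 6.58 and 6.73 in Col-0 and 7.14 and 6.90 in scl3 in replicates 1 and 2, and 4.84 and 2.41 in replicate 3, and AGL42 (AT5G62165), a marker of the quiescent centre, differed by -2.32. BBM was dim in replicate 3, and its difference was -3.22, or -1.65 with a pseudocount of 32. In the cell cycle list, AUR1 (AT4G32830), a mitotic Aurora kinase, and AT4G14330, a kinesin, differed by -1.04 and -1.15, while AUR2 (AT2G25880) and AUR3 (AT2G45490) were not counted. Of 7 histone genes HIS1-3 (AT2G18050), a stress-linked linker histone, and HTB1 (AT1G07790), an H2B, were lower, with differences of -2.60 and -1.22, and the dim MGH3 (AT1G19890) was higher by 2.69. HTB4 (AT5G59910) differed by 0.05.

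**Figure D4:**
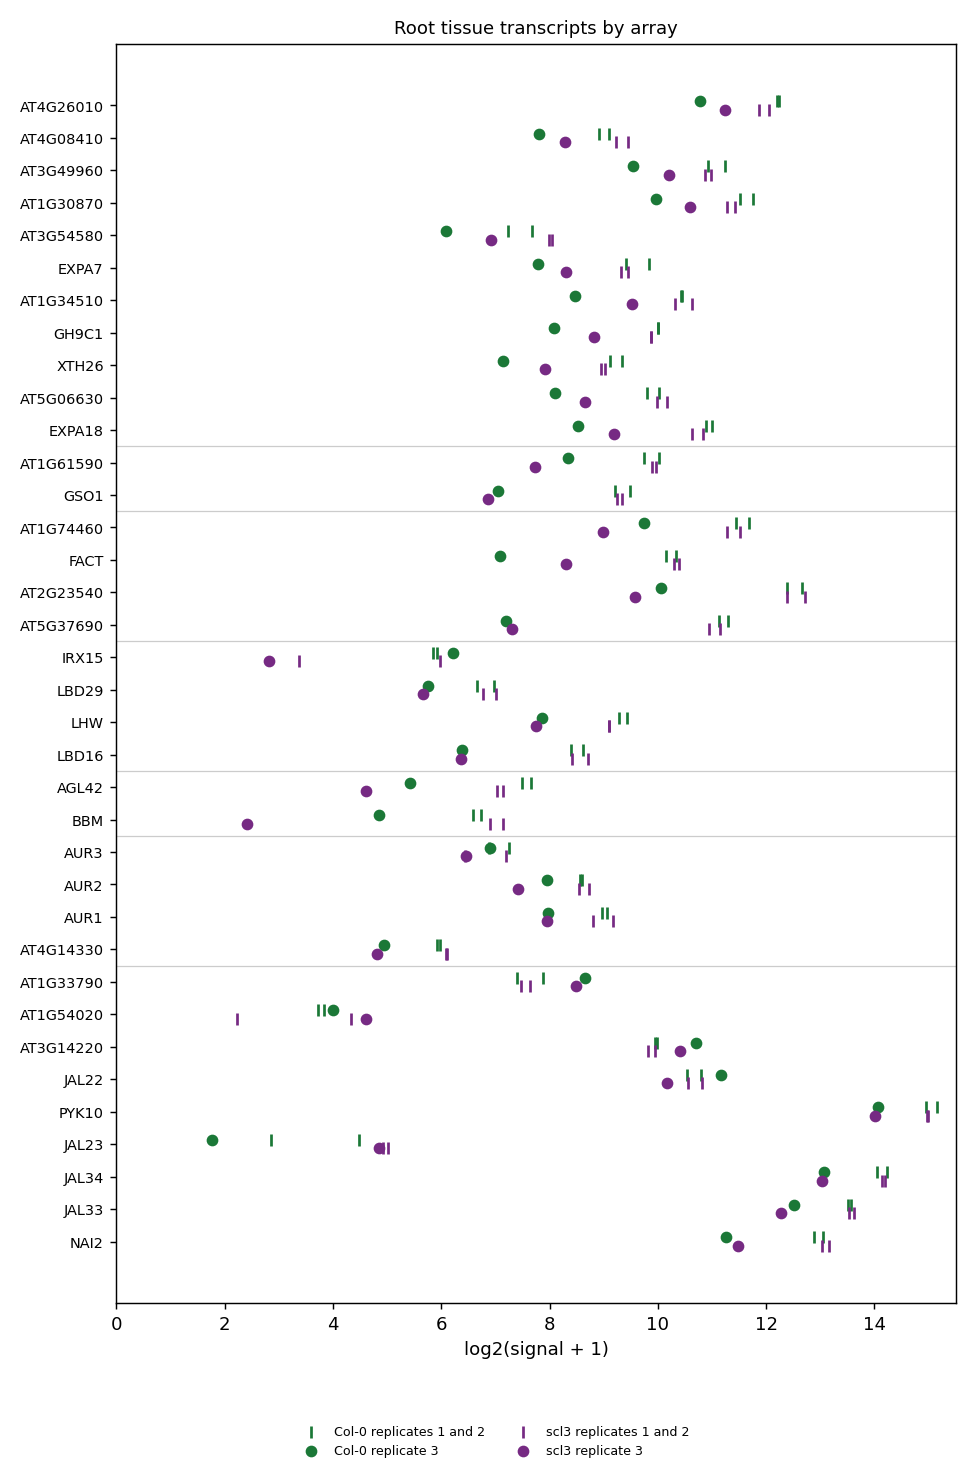
Log2(signal + 1) on each of the 6 arrays for the genes of 7 root lists, with bars for replicates 1 and 2 and dots for replicate 3 (green, Col-0; purple, scl3). The root hair dots lie left of all their bars, the Col-0 dot further left than the scl3 dot, while genes of the ER body list fall on both sides.

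ER bodies are myrosinase stores of seedlings and roots. PYK10 (AT3G09260), their main beta-glucosidase, had 14.95 and 15.17 in Col-0 and 14.99 and 14.96 in scl3 in replicates 1 and 2, and 14.07 and 14.02 in replicate 3, a difference of -0.97 that fell just outside the count, as SEC at -1.01 fell just inside it. NAI2 (AT3G15950), which builds ER bodies, differed by -1.66, and the jacalin-related lectins JAL33 (AT3G16450) and JAL34 (AT3G16460) by -1.15 and -1.10. These were 3 counted lower of 9, with none higher. AT3G13610, the enzyme that makes the coumarins roots secrete under iron shortage, differed by -1.21, and PYE (AT3G47640), an iron response regulator, by -0.31. Of 6 peroxidases outside the root hair list, PRX52 (AT5G05340), which acts in lignin formation, AT5G66390 and AT2G41480 were lower, with differences of -4.24, -2.75 and -2.72, and AT5G64120 was higher by 1.08. Of 19 expansins, 7 were lower, including EXPA15 (AT2G03090) at -2.17 and also EXPA7 and EXPA18 of the root hair list, and 2 were higher. EXPA16 (AT3G55500), counted higher, had 5.08 and 3.75 in Col-0 and 4.96 and 5.57 in scl3 in replicates 1 and 2. In replicate 3 it had 9.04 and 8.89. Among all genes 20.4% were counted lower and 12.2% higher, so these small counts only describe which members moved.

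The lowest differences of all exceeded in size the -4.24 of PRX52, the lowest on a root list. Of 808 genes counted lower whose mean log2 signal in replicates 1 and 2 was at least 9, the 15 lowest ran from -6.23 to -4.34. GSTU22 (AT1G78340), a glutathione transferase, had 12.58 and 12.78 in Col-0 and 12.87 and 13.13 in scl3 in replicates 1 and 2, and 6.54 and 6.67 in replicate 3, a difference of -6.23 beside an SD of 0.23 over the other 4 arrays. Its replicate 3 signals were those of a dim probe set, whereas the other 4 were bright. AGL21 (AT4G37940), a MADS-box factor of lateral root growth, had 9.03 and 9.02 in Col-0 and 9.35 and 9.004 in scl3 in replicates 1 and 2, and 4.26 and 3.17 in replicate 3, a difference of -5.39. TPS-CIN (AT3G25830), the root synthase of the monoterpene cineole, had 10.004 and 9.31 in Col-0 and 9.91 and 9.51 in scl3 in replicates 1 and 2, and 4.39 and 4.76 in replicate 3, a difference of -5.11, and AT5G48110, another terpene synthase, differed by -5.12. The germin-like gene AT5G38910 differed by -5.74 and the glycosyltransferase UGT73B4 (AT2G15490) by -4.58. The other members were AT3G61390, AT4G28460, AT4G04990, AT2G16005, AT1G26410, AT5G37990, AT2G15220, AT1G69526 and LEA4-5. The probe set of AT2G15220 is of a kind that can bind transcripts of related genes.

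Families with both shoot and root members, grouped after the values were seen, held members of both directions in most cases. Over the 233 genes of all 11 symbol families, those of the NDH complex included, 21.5% were counted higher and 25.3% lower. Among all genes the shares were 12.2% and 20.4%. At such shares a family of this size holds both directions readily, so the counts below only describe which members moved. Of 11 GSTU glutathione transferases, 6 were lower and 2 higher. GSTU25 (AT1G17180) had 11.95 and 11.88 in Col-0 and 12.17 and 12.18 in scl3 in replicates 1 and 2, and 7.60 and 8.11 in replicate 3, and GSTU16 (AT1G59700) and GSTU18 (AT1G10360) were higher by 3.13 and 2.53. Of 20 BGLU beta-glucosidases, 8 were lower and 4 higher. BGLU25 (AT3G03640) had 13.51 and 13.69 in Col-0 and 13.68 and 14.16 in scl3 in replicates 1 and 2, and 9.37 and 10.09 in replicate 3, whereas BGLU44 (AT3G18080) had 7.69 and 7.61 in Col-0 and 7.94 and 7.59 in scl3 in replicates 1 and 2, and 11.89 and 12.29 in replicate 3. Among 47 UGT glycosyltransferases, 12 were lower and 11 higher, from -4.58 to 5.14, the latter in UGT76E11 (AT3G46670). Of 10 genes of the actin-binding NET family, 5 were lower and none higher.

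The 2 replicate 3 arrays differed more from each other than the other pairs did. Over 5862 probe sets with a mean log2 signal of at least 9, the scl3 minus Col-0 difference had an SD of 0.170 in replicate 1, 0.194 in replicate 2 and 0.360 in replicate 3. A 2-fold difference or more was seen in 2, 1 and 102 of them, and in replicate 3 scl3 was higher in 65 and lower in 37. Each pair is 1 array against 1, so no test was possible within a pair. Root hair genes were part of this: the list's median scl3 minus Col-0 difference was 0.65 in replicate 3, with all 11 genes above 0, against 0.04 and -0.37 in replicates 1 and 2.

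Among named genes of that brightness, AT5G19110 had the largest gap with scl3 higher, 2.16 in replicate 3, against 0.40 and 0.15 in replicates 1 and 2. CHIL (AT5G05270), a chalcone isomerase-like protein of flavonoid synthesis, had 10.24 and 10.24 in Col-0 and 10.08 and 9.99 in scl3 in replicates 1 and 2, and 7.30 and 9.30 in replicate 3. AT1G06000, a flavonol rhamnosyltransferase, had 10.64 and 10.52 in Col-0 and 10.37 and 10.27 in scl3 in replicates 1 and 2, and 8.09 and 9.48 in replicate 3. Both were lowest in Col-0 replicate 3. DFR (AT5G42800), which starts the anthocyanin branch, fell short of that brightness and is given as a flavonoid list member. It had 4.44 and 5.01 in Col-0 and 4.86 and 5.11 in scl3 in replicates 1 and 2. In replicate 3 it had 6.16 and 8.43, so it was highest in scl3 replicate 3. Its replicate 3 difference was 2.44, or 1.71 with a pseudocount of 32. OSM34 (AT4G11650), an osmotin, had 13.19 and 13.09 in Col-0 and 13.44 and 13.37 in scl3 in replicates 1 and 2, and 11.01 and 12.88 in replicate 3, and AT4G16260, a beta-1,3-glucanase, had 11.66 and 11.87 in Col-0 and 11.97 and 11.65 in scl3 in replicates 1 and 2, and 10.20 and 12.09 in replicate 3. Going the other way, AT3G16530, a legume-lectin protein, was higher in Col-0 replicate 3, with 10.25 and 10.11 in Col-0 and 10.53 and 10.83 in scl3 in replicates 1 and 2, and 12.68 and 11.52 in replicate 3. AKINBETA1 (AT5G21170), a subunit of the SnRK1 energy-sensing kinase, had 9.47 and 9.80 in Col-0 and 9.54 and 9.80 in scl3 in replicates 1 and 2, and 11.75 and 10.29 in replicate 3, and AT2G21100, a dirigent protein, differed between scl3 and Col-0 by -1.24 in replicate 3. Apart from CHIL and DFR, which are on the flavonoid list, these genes were picked from the 10 largest gaps in each direction after their values were seen.

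**Figure D5:**
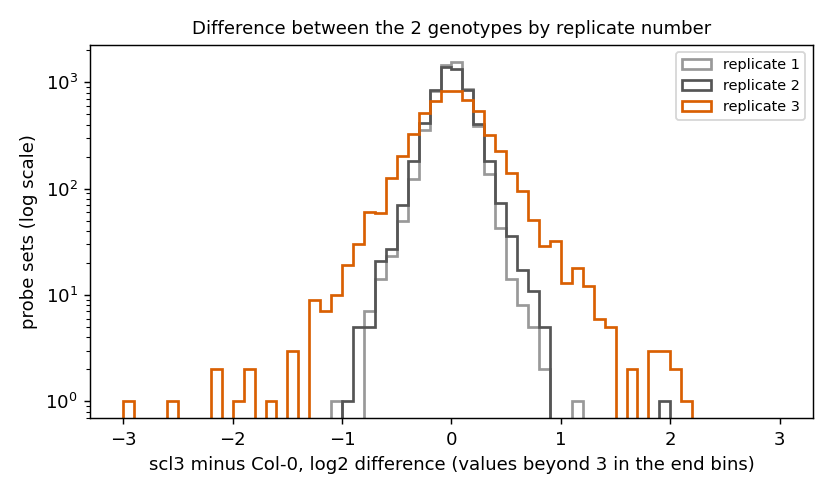
Number of probe sets (log scale) by log2 difference between the scl3 and Col-0 arrays of the same replicate number, over the 5862 probe sets with a mean log2 signal of at least 9. The replicate 3 pair has the widest distribution, with 102 probe sets at 2-fold or more against 2 and 1.

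The replicate 3 arrays also bear on the comparison the study was designed for. With them, the median SD of a probe set within Col-0 was 0.594 over 3 arrays, and without them 0.152 over 2; within scl3 the values were 0.561 and 0.149. Tested over the 6 arrays with replicate 3 as a term, limma with Benjamini-Hochberg adjustment called 1 of 22746 probe sets (0.0044%) between scl3 and Col-0, and 1311 had an unadjusted p under 0.05. With genotype as the only term, none was called and 235 had an unadjusted p under 0.05. Without the 2 replicate 3 arrays, limma called 1 probe set and 1338 had an unadjusted p under 0.05. Where nothing differs, a share of 0.05 of all probe sets is expected under that bound, so these counts are no tally of genotype effects. The called probe set was 261866_at, a probe set with no gene name in the annotation. It had 9.55 and 9.59 in Col-0 and 3.999 and 4.59 in scl3 in replicates 1 and 2, and 9.13 and 4.59 in replicate 3. Its fitted log2 difference was -5.03 (SE 0.26), with an adjusted p of 0.000934 from limma, and it was lower in scl3 in each of the 3 same-numbered comparisons. The call was lost without Col-0 replicate 1, without Col-0 replicate 2, without the variance trend and with genotype as the only term. No probe set was named as SCL3 in that annotation, so the transcript of the mutated gene was not analysed here by name.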

How the data were processed

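RNA of whole roots was labelled from 300 ng with the kit named in the labels' protocols and hybridized to 1 Affymetrix ATH1 array per sample. The deposited values are linear intensity per probe set, for which the submitters' processing notes name MAS5 and, as the software, Affymetrix Expression Console 1.1. Such signals are scaled per array, so a difference is relative to the rest of the array. They were taken as log2(signal + 1), without the 64 control probe sets. Groups came from the sample titles, and the arrays' number limits precision. The replicate 3 difference was the least-squares coefficient with genotype as a term. A 2-fold minimum and non-overlap defined the counts, and no test was made, since the split was chosen on these values.

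Of the plant probe sets, 13513 had 1 gene, 503 had several and were not named, and 8730 were unnamed here; 13436 were matched to RefSeq's TAIR10.1 table for symbols. Of 49 lists, 9 had no named gene and 10 had 1 or 2. The members and lists were chosen with earlier results of these data known, and symbol families were added after the values were seen. Named genes were the 15 highest and 15 lowest differences among counted genes with a mean log2 signal of at least 9 in the higher set, and up to 4 members of each list plus the largest of opposite sign; further list members are given too. Where a gene had 2 or more probe sets, all with a mean signal of at least 100, they lay on one side of 0 in 25 of 32 genes.

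The genotype test used limma 3.58.1 in R 4.3.3 with an intensity trend, 2-sided, an adjusted p under 0.05, and was tested on simulated data. Same-numbered Col-0 and scl3 arrays deviated together from their genotype means, with correlations of 0.51, 0.50 and 0.76. Deviations of 3 arrays from their own mean sum to 0, so the replicate 3 split by itself makes replicates 1 and 2 deviate together. These correlations therefore cannot show that the numbers pair the samples. The replicate 1 minus replicate 2 difference correlated at 0.02 between genotypes, so no pairing was seen outside the replicate 3 split. Nothing says that replicates came from separate cultures, beyond the series text calling them biological, so p-values measure the spread between these arrays. No promoter sequences were used here, so the planned motif count was not made. Python 3.11.15, numpy 2.4.6, pandas 2.3.3 and matplotlib 3.10.9 were used.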

Additional observations from a re-analysis of the deposited data

Results flagged for a closer look

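Among list members with a mean log2 signal of at least 8 in either genotype, 3 genes moved in opposite directions in the 2 genotypes, by at least 0.2 in each, with the replicate 3 array outside the range of the other 2 both times. UGT78D2, a flavonoid glucosyltransferase, differed by -0.35 in Col-0 and by 0.25 in scl3. EXPA8, an expansin, differed by 0.23 in Col-0 and by -0.34 in scl3. JAL22, a jacalin-related lectin, differed by 0.49 in Col-0 and by -0.51 in scl3. Each value rests on 1 replicate 3 array, and the difference between the genotypes was not tested.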

How the results depend on the processing

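The counts of 3112 probe sets higher and 4866 lower stayed within 1.5 times under a pseudocount of 32 (2430 and 3321), quantile normalization (3391 and 4113) and median centring (3710 and 3581). Leaving out 1 array gave 3179 to 3623 higher and 4948 to 5828 lower, and counts within one genotype were 3831 and 6216 in Col-0 and 3949 and 5560 in scl3. A filter on low values, which tests 13647 probe sets, left 1755 higher and 3249 lower, and a 4-fold minimum left 1775 higher and 1481 lower. Scaling to the hybridization controls gave 18643 higher and 134 lower. That scaling alone reversed 8 list medians that were at least 1 in size: root hair became 1.1, endodermis 0.44, stele 1.27, class III peroxidases 1.31, wound and elicitor 1.40, abscisic acid and cold 1.41, BGLU 1.53 and GSTU 1.48. Negative medians under 1 in size, such as those of cell cycle and of PYK10 and ER body, turned positive on it too. The construction of that scale shows the cause, as it raises every value on the 2 dim-control arrays. The filter on low values turned the leaf identity median to -1.74, which is the value of PHV, the only gene of that list it kept. Over the list medians and their alternatives, 488 values moved by less than the spread between arrays, 210 moved by more and 9 reversed. Of 378 alternative values for the 30 genes with the highest and lowest differences, 122 moved by more than the spread between arrays and none reversed. These genes were picked for the size of their difference, so a reversal was unlikely from the start and its absence says little. Of the 15 highest, the filter on low values kept only PRK, ECS1 and AT3G05730, so the others have no value under it. With a pseudocount of 32 the 15 highest ran from 4.85 to 8.56 and the 15 lowest from -5.84 to -3.53. The genotype test, with 1 probe set called, gave 0 with genotype as the only term and 0 without the variance trend, and 5 scaled to the hybridization controls. Leaving out 1 array gave 0 to 1, with 0 without Col-0 replicate 1 or replicate 2. A fit with the replicate block also called 1, so the block changed no call count. Dim probe sets limit all of this, since they have no detection calls here and scatter on the log scale.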
